A study of Homo sapiens with 18 samples.

Results

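The genes described here are ANKRD26 and 9 further genes. The 9 act at centriole distal appendages, in the centriole end cap (CEP97) or in the PIDDosome, a protein complex that reports on centrosomes. They are CEP164, CEP83, CEP89, SCLT1, FBF1, LRRC45, TTBK2, PIDD1 and CEP97. All 10 were found by symbol among the 58870 genes of the count table, and all 10 passed the filter on low counts. ANKRD26 was included because the study examined it as a target of NRF1, and the others because of their known roles.

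The samples were 18 RNA-Seq libraries of polyadenylated RNA from HEK293 Flp-In cells, which derive from human embryonic kidney and carry a site for inserting a transgene. Cells received an siRNA against NRF1 (siNRF1) or a non-targeting siRNA (siNT), and every library is labelled as treated with siRNA and doxycycline. There were 3 libraries for each of 6 conditions, siNRF1 with NRF1-ΔE7, siNRF1 with NRF1-FL, siNRF1 without a transgene, siNT with NRF1-ΔE7, siNT with NRF1-FL and siNT without a transgene. NRF1-FL is full-length NRF1 and NRF1-ΔE7 lacks exon 7, and both are doxycycline-inducible, FLAG-tagged cDNAs with silent changes at the siRNA site. Per the labels, doxycycline was added 24 h after transfection, whereas the study's methods give a shorter time. Each isoform was carried by a stable line grown out under hygromycin, so isoform and line cannot be told apart, and the number of clones behind a line is not stated. The labels do not say whether the cells without a transgene carried a control insert, or whether replicates came from separate cultures. The p-values therefore measure only the spread between these libraries, which may be technical.

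Distal appendages are blades at the far end of the mother centriole that dock it to a membrane before a primary cilium grows. CEP83 sits at their base and recruits the other components, and CEP164 brings in the kinase TTBK2, which triggers loss of the CP110 and CEP97 cap from the centriole end. ANKRD26 is an appendage protein that holds PIDD1 at the centriole, and in cells with extra centrosomes the PIDDosome activates caspase-2, which cleaves MDM2 and raises p53. NRF1 is nuclear respiratory factor 1, a transcription factor that binds GC-rich elements close to gene starts.

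The DNA just before the start sites is shown because NRF1 acts there and because ANKRD26 differed from the other genes in its letters. The motif searched was GCGCANGC and its reverse complement GCNTGCGC, on either strand, in the window from 250 bases before to 50 bases after each RefSeq start on GRCh38.p14. All 10 genes matched a window and CEP83 had an additional one, which gave 11 windows. The motif was in 3 of the 11, those of ANKRD26, LRRC45 and TTBK2, and in 12.0% of the 35116 windows of all genes. The 100 bases before each of these 3 start sites are printed 5′ to 3′ on the strand of the gene, with motif matches in capitals.
ANKRD26, chr10:27100495-27100594, minus strand: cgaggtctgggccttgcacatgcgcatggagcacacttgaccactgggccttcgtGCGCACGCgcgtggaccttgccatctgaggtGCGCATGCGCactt
LRRC45, chr17:82023205-82023304, plus strand: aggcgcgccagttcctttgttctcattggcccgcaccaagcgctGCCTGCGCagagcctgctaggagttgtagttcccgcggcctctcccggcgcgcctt
TTBK2, chr15:42920779-42920878, minus strand: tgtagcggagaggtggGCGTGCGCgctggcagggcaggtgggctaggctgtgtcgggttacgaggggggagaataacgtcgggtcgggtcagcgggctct
ANKRD26 had 3 matches, from -45 to -38, from -14 to -7 and from -12 to -5, counted from the start site. The last 2 overlap on opposite strands and share the last run of capitals. Windows with 3 or more matches were 0.997% of all windows (350 of 35116). LRRC45 had 1 match from -56 to -49 and TTBK2 had 1 from -84 to -77. A match is a description of letters and not a measured binding site, and no match in the other 8 windows says nothing about NRF1 there. At the ANKRD26 promoter the study itself measured binding by chromatin immunoprecipitation, and reported less for NRF1-ΔE7 than for NRF1-FL.

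**Figure D1:**
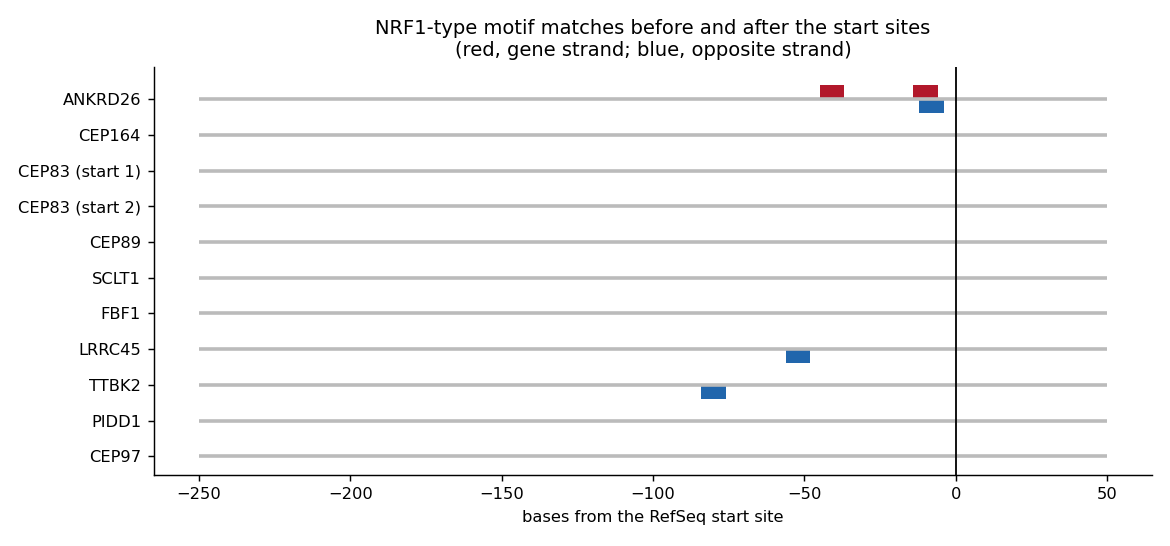
Motif matches in the 11 promoter windows, by distance in bases from the RefSeq start site, with red bars for matches on the strand of the gene and blue bars for those on the opposite strand. ANKRD26 has 3 matches within 45 bases of its start, LRRC45 and TTBK2 have 1 each, and the other 8 windows have none.

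The siRNA was searched against the genes too, since a short match to its guide strand in a 3′ UTR can lower an RNA that is not the intended target. Its target lies in the coding part of exon 4 of NRF1, at chr7:129677681-129677699 on the plus strand of hg38. The guide strand is printed with its seed (bases 2 to 8) in capitals.
siNRF1 guide strand: aGAUACAGaggacaauagc
The match to that seed, CTGTATC, was in the annotated 3′ UTR of 0 of the 10 genes, and in 9.7% of 19559 canonical 3′ UTRs. Only 1 canonical 3′ UTR per gene was searched.

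Library totals ran from 31.2 M to 44.8 M counts, with a median of 38.3 M. KRT8, KRT18, VIM, NEFL and CDH2, which HEK293 cells express, were present in all 18 libraries at 80.0 CPM or more (CPM, counts per M of the library total, adjusted by TMM factors between libraries), while NEFM was at 0.922 to 2.33 CPM and PAX2 at 3.28 to 6.97 CPM. The blood markers PTPRC and CD3E, the endothelial markers PECAM1 and CDH5, and the liver marker ALB were at 0.253 CPM or less in every library. Of the fibroblast and squamous markers COL1A1 was at 9.62 to 14.2 CPM, COL3A1 at 0.190 to 0.874 CPM, KRT14 at 0.0950 CPM or less, and KRT5 at up to 12.6 CPM with a median of 0.0234 CPM. Counts of the 10 genes ran from 415 for ANKRD26 to 4798 for CEP89 in a library, and 17962 genes were tested.

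NRF1 RNA, the target of the siRNA, was at 37.3, 37.9 and 39.9 CPM in siNRF1 cells with NRF1-ΔE7, at 49.3, 50.4 and 49.1 CPM in siNRF1 cells with NRF1-FL, and at 7.19, 9.25 and 7.70 CPM in siNRF1 cells without a transgene. In siNT cells it was at 57.9 to 59.0 CPM with NRF1-ΔE7, 52.4 to 55.7 CPM with NRF1-FL and 29.3 to 31.1 CPM without a transgene. Without a transgene it was 3.77-fold lower in siNRF1 than in siNT cells (log2 fold change -1.92, edgeR quasi-likelihood test, adjusted p = 5.9e-18). Counts of NRF1 join reads of the endogenous gene and of the transgene. Between the lines under siNRF1, NRF1 RNA was lower in NRF1-ΔE7 than in NRF1-FL cells (log2 fold change -0.37 ± 0.05 SE, adjusted p = 9.0e-07). This difference moves with every comparison of the isoforms under siNRF1, and its part in them was not tested.

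ANKRD26 RNA was low in siNRF1 cells unless NRF1-FL was present. It was at 11.1, 11.3 and 9.80 CPM in siNRF1 cells with NRF1-ΔE7, at 31.1, 32.3 and 31.4 CPM in siNRF1 cells with NRF1-FL, and at 12.3, 12.3 and 12.1 CPM in siNRF1 cells without a transgene. In siNT cells it was at 38.9, 41.9 and 43.1 CPM with NRF1-ΔE7, at 41.6, 40.1 and 39.5 CPM with NRF1-FL, and at 36.5, 40.1 and 38.4 CPM without a transgene. The 3 siNT conditions overlapped each other, the siNRF1 libraries with NRF1-FL lay below all of them, and the other 6 siNRF1 libraries lay lower still, at 12.3 CPM or less. The gene lies at chr10:26973793-27100494 on the minus strand (GENCODE v44), with 34 exons in its canonical transcript and no exon shared with another annotated gene. Its pseudogenes ANKRD26P1 to ANKRD26P4 had at most 0.224 CPM in a library.

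Under siNRF1, ANKRD26 was 2.96-fold lower in the NRF1-ΔE7 line than in the NRF1-FL line (10.7 ± 0.789 against 31.6 ± 0.618 CPM, SD, n = 3 each), a log2 fold change of -1.56 ± 0.05 (SE) with an adjusted p of 5.8e-16 in the fit across all genes. Of all genes tested, 0.607% had a lower log2 fold change in that comparison. Under siNT the isoforms did not differ beyond the spread, with 41.3 ± 2.16 CPM in NRF1-ΔE7 cells and 40.4 ± 1.07 CPM in NRF1-FL cells (SD, n = 3 each; log2 fold change 0.03, 95% interval -0.07 to 0.13, adjusted p = 0.71). The difference between these contrasts, tested as the interaction of isoform and siRNA, was -1.60 ± 0.07 on the log2 scale (adjusted p = 3.0e-13).

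ANKRD26 was lower with siNRF1 than with siNT in each background, by amounts that differed. It fell by 1.95 on the log2 scale in the NRF1-ΔE7 line (3.87-fold, adjusted p = 3.0e-19), by 0.35 in the NRF1-FL line (1.28-fold, adjusted p = 6.9e-07) and by 1.64 without a transgene (3.13-fold, adjusted p = 1.1e-17), each relative to siNT cells of the same background. The fall in the NRF1-FL line passed the p threshold but not the fold threshold of 0.5 on the log2 scale that was used for calls. The siRNA response was 1.29 higher (log2 scale) in the NRF1-FL line than without a transgene (95% interval 1.13 to 1.45, adjusted p = 1.3e-11). In the NRF1-ΔE7 line the response was 0.31 lower on that scale than without a transgene (log2 difference -0.31, 95% interval -0.47 to -0.14, adjusted p = 0.037), which did not reach the fold threshold and lost significance under 9 of 19 alternatives, 1 of them a fit of only the 4 groups compared and 8 leaving out a library. The siRNA comparison in the NRF1-ΔE7 line and the isoform comparison share the siNRF1 libraries with NRF1-ΔE7.

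**Figure D2:**
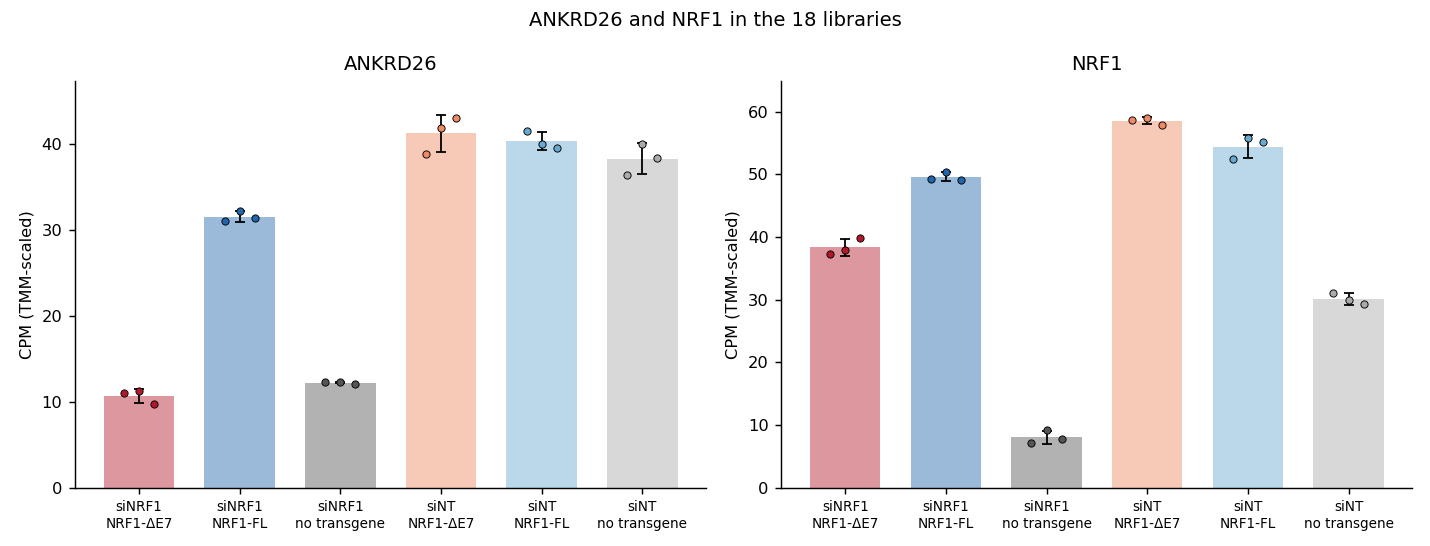
CPM of ANKRD26 (left) and NRF1 (right) in the 18 libraries, with points for libraries, bars for the mean of 3 libraries and error bars for the SD, on axes that start at 0. ANKRD26 is at 12.3 CPM or less in the 6 siNRF1 libraries without NRF1-FL, and at 31.05 CPM or more in the other 12.

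The 5 genes whose log2 CPM followed ANKRD26 most closely over the 18 libraries were POMT1, BBS2, TBC1D24, MRS2 and RPS6KB1, with Pearson's r of 0.9951, 0.9942, 0.9938, 0.9933 and 0.9928. They share libraries and conditions with ANKRD26, and the values are a description. BBS2, a subunit of the BBSome that carries membrane proteins in cilia, was at 5.35 CPM in siNRF1 cells with NRF1-ΔE7, 30.9 CPM in siNRF1 cells with NRF1-FL and 5.28 CPM in siNRF1 cells without a transgene, against 42.9, 45.2 and 40.6 CPM in the siNT cells of these backgrounds. POMT1, an enzyme of protein O-mannosylation, was at 17.4, 49.9 and 19.6 CPM in the same siNRF1 conditions, against 60.8, 63.7 and 60.8 CPM in the siNT ones. The motif was in the promoter windows of 4 of these 5 genes, with 2 matches in POMT1 and TBC1D24, 1 in MRS2 and RPS6KB1 and 0 in BBS2. It was in 12.0% of the 35116 windows of all genes, which were not limited to expressed genes. The 5 genes were picked from these same data, so the 2 shares are not of like sets.

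The 9 other genes did not share this pattern. Their Pearson's r with ANKRD26 over the 18 libraries was 0.72 for CEP83, 0.52 for LRRC45 and 0.10 for SCLT1, and between -0.89 (FBF1) and -0.67 (TTBK2) for the rest. Their conditions differed much less, with the highest mean CPM of the 6 conditions under 2 times the lowest for each.

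**Figure D3:**
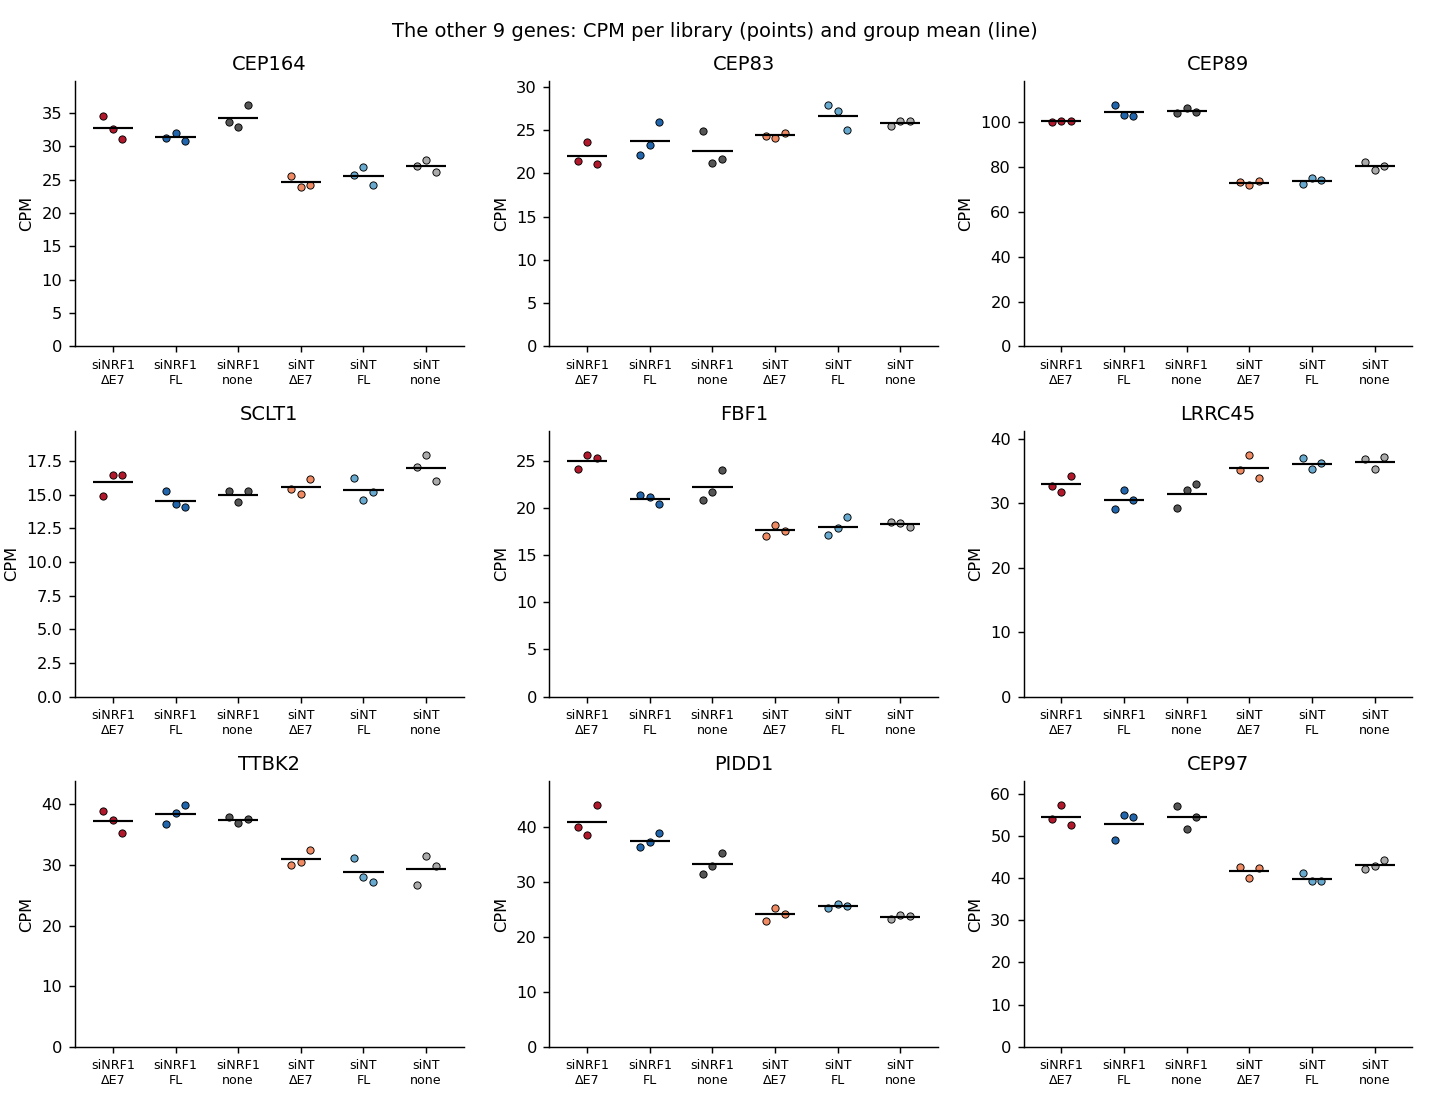
CPM of the other 9 genes in the 18 libraries, with points for libraries and lines for the mean of 3, on axes that start at 0. CEP164, CEP89, FBF1, TTBK2, PIDD1 and CEP97 are higher in every siNRF1 library than in the siNT libraries of the same background, while CEP83, SCLT1 and LRRC45 are close between conditions. Of all genes, 67% to 70.9% did not overlap between siNRF1 and siNT within a background.

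Of the appendage scaffold, CEP83 was at 21.0 to 23.7 CPM in siNRF1 cells with NRF1-ΔE7, 22.1 to 25.9 CPM with NRF1-FL and 21.2 to 24.9 CPM without a transgene, against 24.1 to 24.7, 24.9 to 27.9 and 25.5 to 26.0 CPM in the matching siNT cells. SCLT1, which acts downstream of CEP83, had the lowest CPM of these 9 genes, at 14.1 to 17.9 in all libraries. CEP89, also placed by CEP83, had the highest CPM, at 100.3, 100.5 and 100.5 CPM in siNRF1 cells with NRF1-ΔE7 and at 73.4, 72.2 and 73.9 CPM in siNT cells with NRF1-ΔE7. Every siNRF1 library, at 100.3 CPM or more, lay above every siNT library, at 82.2 CPM or less, for CEP89. Within a background, the siNRF1 and siNT groups did not overlap for 67% to 70.9% of all genes. No such share was taken over the backgrounds together.

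CEP164, the outer appendage protein that recruits TTBK2, was at 32.8 ± 1.70 CPM in siNRF1 cells with NRF1-ΔE7, 31.4 ± 0.609 CPM with NRF1-FL and 34.2 ± 1.74 CPM without a transgene, against 24.6 ± 0.888, 25.6 ± 1.37 and 27.0 ± 0.898 CPM in the siNT cells of these backgrounds (SD, n = 3 each). TTBK2 was at 35.3 to 39.8 CPM in the 9 siNRF1 libraries and 26.7 to 32.5 CPM in the 9 siNT libraries. CEP97, which caps centrioles with CP110, was at 49.0 to 57.3 CPM in siNRF1 and 39.3 to 44.4 CPM in siNT libraries. For these 3 genes no siNRF1 library reached down to an siNT library. No share of all genes was taken for that split, and 67% to 70.9% of them did not overlap within a background. LRRC45, which is also found at the linker between centrioles, was at 29.1 to 34.2 CPM in siNRF1 and 33.9 to 37.4 CPM in siNT libraries, which overlap.

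FBF1, an appendage protein of the ciliary gate, was at 24.2, 25.6 and 25.3 CPM in siNRF1 cells with NRF1-ΔE7, at 21.3, 21.2 and 20.5 CPM with NRF1-FL, and at 20.8, 21.7 and 24.1 CPM without a transgene. In siNT cells it was at 17.1, 18.2 and 17.6 CPM with NRF1-ΔE7, at 17.1, 17.9 and 19.0 CPM with NRF1-FL, and at 18.6, 18.4 and 18.02 CPM without a transgene. Its siNRF1 libraries with NRF1-ΔE7 were above all others. The deposited counts of FBF1 were not whole numbers in 18 of 18 libraries, and those of TTBK2 in 4 of 18, while the other 8 genes had whole counts throughout.

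PIDD1, the scaffold of the PIDDosome and itself a p53 target, was at 40.2, 38.6 and 44 CPM in siNRF1 cells with NRF1-ΔE7, at 36.5, 37.4 and 39.0 CPM with NRF1-FL, and at 31.5, 33.0 and 35.3 CPM without a transgene. The siNT values were 23.0, 25.3 and 24.1 CPM with NRF1-ΔE7, 25.2, 26.0 and 25.7 CPM with NRF1-FL, and 23.2, 24.1 and 23.8 CPM without a transgene. All 9 siNRF1 libraries lay above all 9 siNT libraries, a split for which no share of all genes was taken. Within a background, 67% to 70.9% of all genes did not overlap between siNRF1 and siNT. PIDD1 was 1.70-fold higher with siNRF1 than with siNT in the NRF1-ΔE7 line (log2 fold change 0.76, adjusted p = 4.8e-12), 1.47-fold higher in the NRF1-FL line (0.55, adjusted p = 2.2e-09) and 1.40-fold higher without a transgene (0.49, adjusted p = 2.3e-08). The value without a transgene lay just under the fold threshold, and passed it without siNRF1 replicate 1 (0.53) or siNT replicate 2 (0.50).

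Without a transgene, all 10 genes passed an adjusted p under 0.05 between siNRF1 and siNT. CEP164, CEP89, FBF1, TTBK2, PIDD1 and CEP97 rose by log2 fold changes of 0.28 to 0.49, while ANKRD26, CEP83, SCLT1 and LRRC45 fell, the last 3 by 0.18 to 0.21. Of all genes tested, 32.1% rose and 32.4% fell by that rule. With the fold threshold, ANKRD26 was called lower and 0 genes were called higher (15.2% of all genes called lower, 13.7% higher). The lower values of CEP83 and SCLT1 did not pass with upper-quartile scaling (log2 fold change -0.10, adjusted p = 0.15, and -0.09, adjusted p = 0.18). CEP83 also did not pass without siNRF1 replicate 2 (adjusted p = 0.064) or 3 (adjusted p = 0.062), nor SCLT1 without siNT replicate 2 (adjusted p = 0.063).

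In the NRF1-ΔE7 line, 6 of the 10 genes were higher and 2 lower with siNRF1 than with siNT at an adjusted p under 0.05 (34.5% and 33.6% of all genes). SCLT1 and LRRC45 did not pass (log2 fold change 0.03, 95% interval -0.09 to 0.16, and -0.11, 95% interval -0.21 to 0.0008), and LRRC45 passed under 4 of 13 alternatives. PIDD1 and FBF1 were called higher and ANKRD26 lower with the fold threshold (16.0% and 16.8% of all genes). The FBF1 value of 0.50 (adjusted p = 1.5e-08) lay at the threshold and dropped below it, to between 0.48 and 0.49, without siNRF1 replicate 2 or 3 or siNT replicate 1 of that line, and to 0.50 (0.4976) with RLE scaling or DESeq2. CEP83, at -0.15 (adjusted p = 0.045), failed the p threshold under 8 of 13 alternatives, with adjusted p from 0.010 to 0.49.

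In the NRF1-FL line, 6 genes were higher and 3 lower with siNRF1 than with siNT at an adjusted p under 0.05 (32.2% and 31.3% of all genes), and SCLT1 did not pass (log2 fold change -0.07, 95% interval -0.20 to 0.06; 0.01 with upper-quartile scaling). With the fold threshold PIDD1 was called higher and 0 genes lower (13.1% and 14% of all genes), and CEP89 at 0.4992 was just under the threshold, which it passed without replicate 2 or 3 of either siRNA (up to 0.51). CEP83, at -0.17 (adjusted p = 0.024), did not pass without siNT replicate 1 of that line (adjusted p = 0.10) and under 4 more of 13 alternatives. The groups did not overlap for all 10 genes without a transgene, 8 in the NRF1-ΔE7 line and 8 in the NRF1-FL line, and for 67.6%, 70.9% and 67% of all genes in these comparisons. The median log2 fold change of the 10 genes was 0.31 without a transgene, against 0.01 over all genes.

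Upper-quartile scaling moved the median of all genes to 0.12 in the NRF1-ΔE7 line, 0.11 in the NRF1-FL line and 0.09 without a transgene, against 0.02, 0.02 and 0.01 with TMM. Lower genes were 51.3%, 51.6% and 52.6% of the calls in these comparisons with TMM, and 40.5%, 40.4% and 42.3% with upper-quartile scaling. A log2 change of 0.2 or less in these comparisons is thus not far from the shift between scalings.

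**Figure D4:**
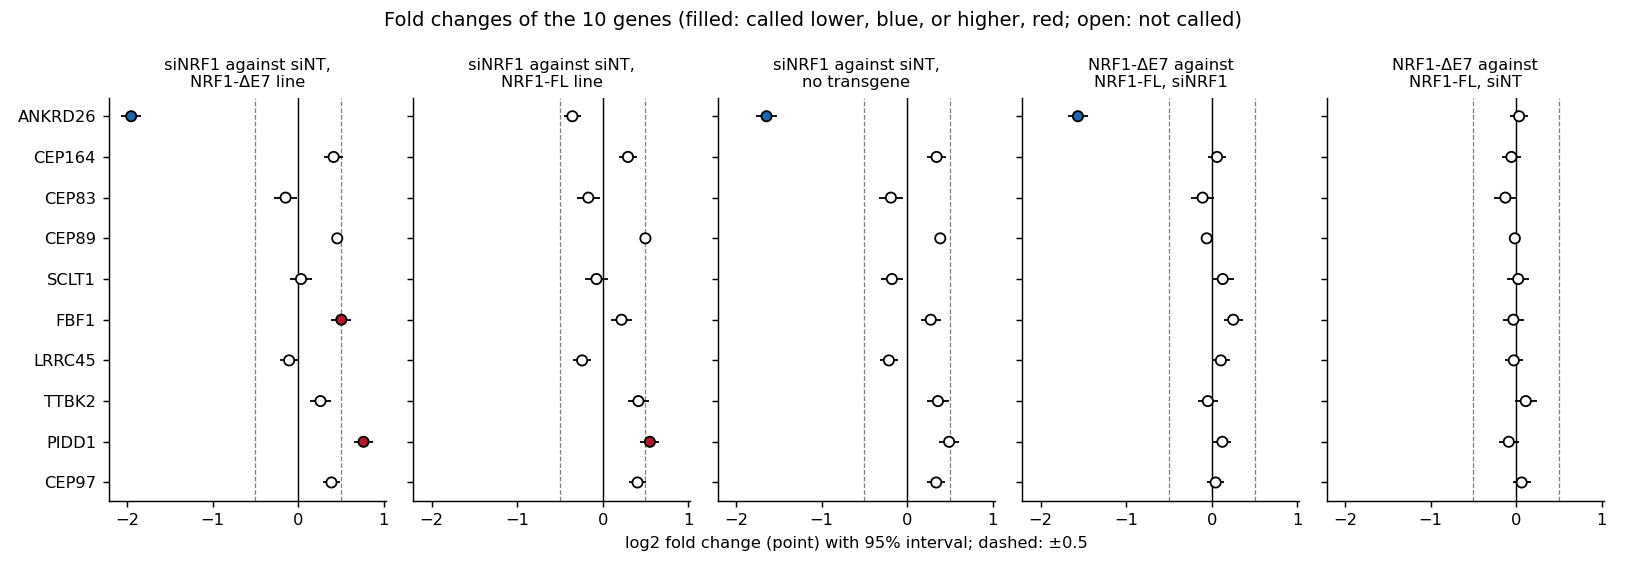
log2 fold changes of the 10 genes in 5 comparisons, with 95% intervals as lines and the fold threshold of 0.5 as dashed lines (filled points passed both thresholds). ANKRD26 is at -1.95, -0.35 and -1.64 for siNRF1 in the NRF1-ΔE7 line, the NRF1-FL line and without a transgene, and at -1.56 and 0.03 for NRF1-ΔE7 over NRF1-FL with siNRF1 and with siNT, and no other gene lies beyond 0.76 in either direction.

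Between the isoforms under siNRF1, ANKRD26 was the only gene of the 10 called in either direction, lower with NRF1-ΔE7 (4.10% of all genes called lower, 2.11% higher). By adjusted p alone, ANKRD26 was lower and FBF1 higher (17.8% and 13.9% of all genes). FBF1 was at 25.0 ± 0.746 CPM with NRF1-ΔE7 and 21.0 ± 0.461 CPM with NRF1-FL (SD, n = 3 each), a log2 fold change of 0.25 ± 0.05 (SE, adjusted p = 6.3e-04). The groups did not overlap for ANKRD26, CEP89 and FBF1, and for 41.6% of all genes. The other 8 genes did not pass, with log2 fold changes from -0.11 (CEP83) to 0.13 (SCLT1) and every 95% interval within -0.25 and 0.26. PIDD1 was nearest to passing (log2 fold change 0.12, 95% interval 0.02 to 0.23, adjusted p = 0.055) and passed under 8 of 13 alternatives, with adjusted p from 0.014 to 0.29.

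Under siNT, 0 of the 10 genes passed between NRF1-ΔE7 and NRF1-FL by edgeR at an adjusted p under 0.05 (8.42% of all genes lower, 7.13% higher), and 0 were called with the fold threshold (1.16% lower, 1.05% higher) by edgeR or by DESeq2. By an unadjusted p under 0.05, 0 of the 10 passed in edgeR, and no share of all genes was taken for that rule. Their log2 fold changes ran from -0.13 (CEP83) to 0.11 (TTBK2). In the interaction of isoform and siRNA, ANKRD26 was called lower (1.92% of all genes called lower, 0.317% higher), and FBF1 passed only by adjusted p (0.28 ± 0.08 SE on the log2 scale, adjusted p = 0.022, with 1.64% of all genes passing higher and 5.55% lower). The FBF1 interaction did not pass in 4 of 19 alternatives, without siNT with NRF1-ΔE7 replicate 1 (adjusted p = 0.067), without siNRF1 with NRF1-ΔE7 replicate 2 (adjusted p = 0.050), and without replicate 3 of siNT with NRF1-FL (adjusted p = 0.085) or of siNRF1 with NRF1-FL (adjusted p = 0.058).

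**Figure D5:**
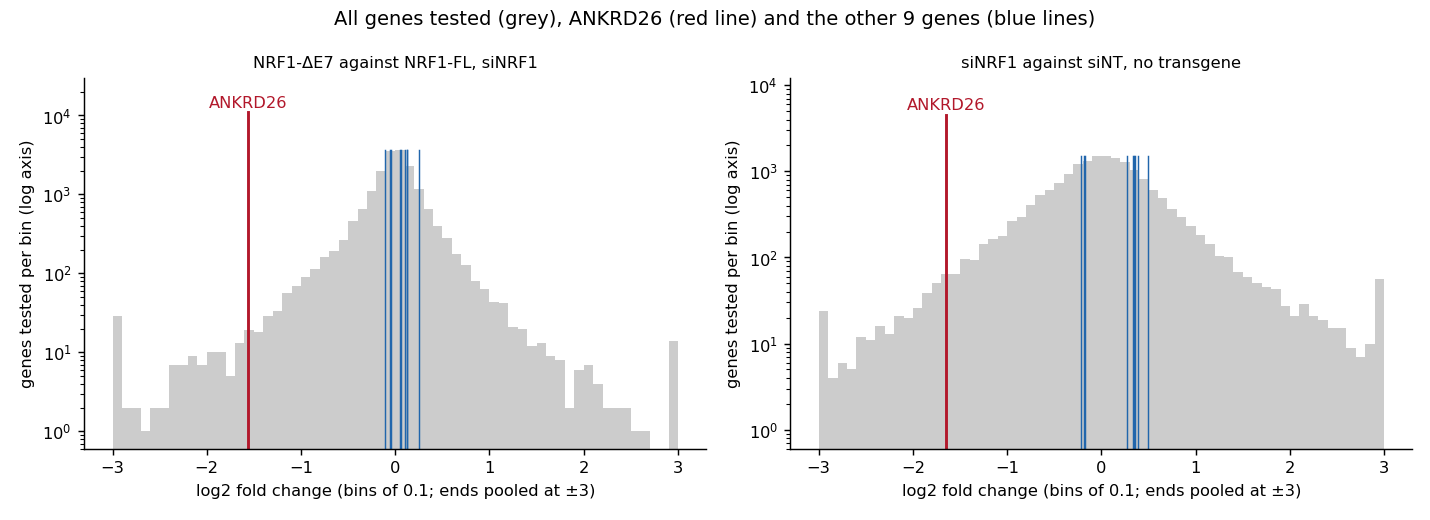
Distribution of log2 fold changes over the 17962 genes tested (grey bars, log axis) for NRF1-ΔE7 over NRF1-FL with siNRF1 (left) and siNRF1 against siNT without a transgene (right), with ANKRD26 in red and the other 9 genes in blue. ANKRD26 is at -1.56 and -1.64, in the lower tail, and the others lie between -0.21 and 0.49.

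Among siNT cells, which kept their endogenous NRF1, the lines were also compared with cells without a transgene. In each comparison edgeR and DESeq2 both called 0 of the 10 genes. By edgeR, 4 of the 10 had an unadjusted p under 0.05 in each, a rule for which no share of all genes was taken. With NRF1-ΔE7 under siNT, against no transgene, 0 of 10 were called (0.930% of all genes lower, 1.29% higher), and CEP89 alone passed by adjusted p (log2 fold change -0.14, adjusted p = 0.0014, with 7.69% of all genes passing lower and 8.62% higher). With NRF1-FL under siNT, against no transgene, 0 of 10 were called (0.457% lower, 0.779% higher), and CEP89 alone passed by adjusted p (log2 fold change -0.12, adjusted p = 0.0093, with 2.81% passing lower and 5.33% higher), but not without siNT replicate 1 (adjusted p = 0.058) or siNT with NRF1-FL replicate 1 (adjusted p = 0.056), nor with no count filter (adjusted p = 0.070). CEP89 was at 73.2 ± 0.836 CPM with NRF1-ΔE7, 74.0 ± 1.28 CPM with NRF1-FL and 80.4 ± 1.72 CPM without a transgene under siNT (SD, n = 3 each). ANKRD26 was 0.11 and 0.08 higher on the log2 scale with NRF1-ΔE7 and NRF1-FL than without a transgene, and neither value passed (adjusted p = 0.12 and 0.37). Both comparisons share the siNT libraries without a transgene. For the siRNA response of each line against that without a transgene, the only call among the 10 genes was ANKRD26, higher in the NRF1-FL line (0.150% of all genes called lower, 1.75% higher). In the NRF1-ΔE7 line 0 of 10 were called by edgeR or DESeq2 (0.0891% of all genes lower, 0.0668% higher by edgeR). By edgeR 4 had an unadjusted p under 0.05, again with no share of all genes to set beside it.

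Per kilobase of annotated exon, LRRC45 and CEP89 had the highest levels in siNT cells without a transgene, at 10.1 ± 0.279 and 8.71 ± 0.187 CPM per kb (SD, n = 3). PIDD1 (4.05 ± 0.077), CEP83 (3.73 ± 0.045) and CEP97 (3.65 ± 0.099) came next, and CEP83 and CEP97 did not differ beyond their spread. ANKRD26 (2.83 ± 0.132), FBF1 (2.72 ± 0.041) and TTBK2 (2.52 ± 0.208) followed, close to each other, and CEP164 (2.10 ± 0.070) and SCLT1 (1.89 ± 0.105) were lowest. In siNRF1 cells with NRF1-ΔE7, ANKRD26 was the lowest of the 10 at 0.790 ± 0.058 CPM per kb, below SCLT1 at 1.77 ± 0.1004. ANKRD26 was also the lowest in siNRF1 cells without a transgene, at 0.902 ± 0.006 CPM per kb, with SCLT1 at 1.67 ± 0.051. In siNRF1 cells with NRF1-FL, ANKRD26 was at 2.33 ± 0.046 CPM per kb, next to CEP164 at 2.43 ± 0.047. Lengths are unions of all GENCODE v44 exons, so a gene with long rare exons reads lower than its main transcript would.

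Genes of neighbouring processes gave the surroundings of these values. Of 8 genes of the PIDDosome and of centrosome surveillance, 3 were higher and 0 lower with siNRF1 than with siNT without a transgene. Of all genes, 13.7% were called higher and 15.2% lower there. The 3 were MDM2, which holds p53 down (log2 fold change 0.78), TP53BP1, a partner of USP28 in the response to slow mitosis (0.71), and CDKN1A, the p53 target p21 (0.60). The same 3 genes were called higher in both lines (16.0% of all genes in the NRF1-ΔE7 line, 13.1% in the NRF1-FL line). Between the isoforms under siNRF1, 0 of the 8 were called (4.10% of all genes lower, 2.11% higher). MDM2 was at 443.7 ± 11.6 CPM in siNRF1 cells with NRF1-ΔE7 and 241.6 ± 6.50 CPM in siNT cells with NRF1-ΔE7 (SD, n = 3 each).

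Of 14 other genes of distal appendages and ciliary vesicles, 3 were higher and 0 lower with siNRF1 than with siNT without a transgene, FGFR1OP (1.29), EHD3 (0.70) and SNAP29 (0.70), and 0 were called between the isoforms. Of all genes, 13.7% were called higher and 15.2% lower with siNRF1 without a transgene. FGFR1OP encodes a centrosomal scaffold needed for cilia, and EHD3 and SNAP29 act in membrane traffic. Of 16 genes of the centriole's distal end, 4 were higher and 2 lower, among them CEP162 (1.06), KIF24 (0.99), POC1B (-1.62) and OFD1 (-0.55). POC1B, which stabilises centriole walls, was at 6.85 ± 0.466 CPM with NRF1-ΔE7, 8.67 ± 0.492 CPM with NRF1-FL and 8.23 ± 0.728 CPM without a transgene under siNRF1, against 26.1 ± 0.889, 25.9 ± 0.720 and 25.4 ± 0.176 CPM under siNT (SD, n = 3 each). Its siNRF1 libraries with NRF1-FL, at 8.13 to 9.09 CPM, were all below its siNT libraries with NRF1-FL, at 25.3 to 26.7 CPM.

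Subdistal appendages, which anchor microtubules just below the distal ones, included CCDC120, which was low in the same 2 siNRF1 conditions as ANKRD26. It was at 4.07 ± 0.379 CPM in siNRF1 cells with NRF1-ΔE7, 12.0 ± 0.708 CPM with NRF1-FL and 3.83 ± 0.307 CPM without a transgene, against 14.3 ± 0.288, 14.6 ± 0.188 and 13.4 ± 0.553 CPM in siNT cells (SD, n = 3 each). With siNRF1 it was lower in NRF1-ΔE7 than in NRF1-FL cells (log2 fold change -1.56, adjusted p = 1.5e-13), and the interaction passed (-1.53, adjusted p = 1.2e-10). NIN, which nucleates and anchors microtubules there, was higher with siNRF1 without a transgene (1.31), and the other 7 of 9 genes were not called.

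Of 13 centriole duplication genes, 3 were higher and 0 lower with siNRF1 than with siNT without a transgene, CEP192 (0.88), CEP135 (0.64) and CEP63 (0.59), and 0 were called between the isoforms. Of 14 transition zone genes, which form the gate above the appendages, 7 were higher and 1 lower, and the list's median log2 fold change was 0.48. B9D2 (1.98) and TCTN2 (1.00) were higher and B9D1 (-0.67) lower. B9D2 was the only one of the 14 called between the isoforms under siNRF1, at 13.7 ± 0.414 CPM with NRF1-ΔE7 and 7.99 ± 0.783 CPM with NRF1-FL (SD, n = 3 each; log2 fold change 0.77, adjusted p = 1.6e-06), and its interaction passed (0.74, adjusted p = 0.0056). For all these lists, the shares of all genes called with siNRF1 without a transgene were 13.7% higher and 15.2% lower. Between the isoforms under siNRF1 they were 2.11% higher and 4.10% lower, and in the interaction 0.317% and 1.92%.

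Whether the authors counted reads by strand is not stated. PLXNC1, CENPX and PANO1 have exons that overlap CEP83, LRRC45 and PIDD1 on the opposite strand, C4orf33 and JADE1 overlap SCLT1 and TTBK2-AS1 overlaps TTBK2, so small changes of these genes are uncertain. CEP164 has such an overlap with an unnamed gene, and FBF1 shares exon bases with an unnamed gene on its own strand. In bulk RNA, less RNA per cell and fewer cells with the RNA cannot be told apart.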

How the data were processed

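RNA-Seq was performed on 18 libraries of polyadenylated RNA made with a stranded kit. Per the submitters' processing notes, Cutadapt 1.18, STAR 2.7.0f and DESeq2 1.46.0 were used with hg38 and GENCODE v30. The table that the authors deposited holds estimated counts for each gene before any normalization, and 91.9% of its values are whole. Which tool counted the reads is not stated. Of 36 columns of per-library values, 18 match no sample of this series and were not used.

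Counts were rounded and filtered (filterByExpr, minimum count 10; 17962 genes kept). Scaling was by TMM (factors 0.944 to 1.07). The edgeR 4.0.16 quasi-likelihood test in R 4.3.3 used 1 mean per condition over all 18 libraries (12 residual degrees of freedom, biological coefficient of variation 0.0337). There were 10 comparisons. Adjusted p-values are two-sided, by Benjamini-Hochberg over the genes tested. A gene was called when its adjusted p was below 0.05 and its log2 fold change exceeded 0.5 in size. Intervals are 95%. Correlations used log2 CPM with a prior count of 2.

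The members and gene lists were chosen with earlier results of these data known. Named were all 10 members, NRF1, up to 4 called genes of each other list and the 5 genes with the highest r with ANKRD26. Further marker genes are named from a fixed list. Some genes of these lists are not reported here. The alternatives tried were scaling by RLE or by the upper quartile, no filter or at least 10 counts in every library, DESeq2 1.42.0, only the groups compared, a replicate block, fold thresholds of 0 and 1, and leaving out each library. Only the edgeR fit of NRF1-ΔE7 against NRF1-FL under siNRF1 was tried on simulated counts, with changes larger than the fold threshold. The other comparisons and steps were not tried in this way. Promoter sequences are from RefSeq (GRCh38.p14). Gene positions, exon lengths and 3′ UTRs are from GENCODE v44. Python 3.11.15, numpy 2.4.6, pandas 2.3.3 and matplotlib 3.10.9 were used.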

Additional observations from a re-analysis of the deposited data

Results flagged for a closer look

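For 2 of the 10 genes, the effect of a contrast differed between cells of 2 kinds by a test of the difference itself, at an adjusted p under 0.05. In the interaction of isoform and siRNA, 5.55% of all genes passed lower and 1.64% higher by that rule. For the siRNA response against no transgene, 207 of 17962 genes passed lower and 750 higher in the NRF1-FL line. In the NRF1-ΔE7 line 286 passed lower and 79 higher. The effect of NRF1-ΔE7 against NRF1-FL on ANKRD26 differed between siNRF1 and siNT by -1.60 on the log2 scale (adjusted p = 3.0e-13, with adjusted p up to 2.2e-11 over 19 alternatives). The same difference was 0.28 for FBF1 (adjusted p = 0.022, from 0.015 to 0.085 over 19 alternatives). The siRNA response of ANKRD26 was 1.29 higher in the NRF1-FL line than without a transgene (adjusted p = 1.3e-11, up to 2.7e-10 over 19 alternatives). The siRNA response of ANKRD26 in the NRF1-ΔE7 line differed from that without a transgene by -0.31 (adjusted p = 0.037, from 0.014 to 0.11 over 19 alternatives). NRF1 RNA also differed between the isoform lines under siNRF1, and its part in these differences was not tested. Groups of 3 libraries were too small for a check of single outlying libraries.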

How the results depend on the processing

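The log2 fold change of ANKRD26 kept its direction under every alternative in all 10 comparisons, and no alternative changed whether it was called, although its siRNA response in the NRF1-ΔE7 line against no transgene, which was not called, missed the p threshold in 9 of 19. Its values ran from -1.59 to -1.50 between the isoforms under siNRF1 and from -1.68 to -1.56 for siNRF1 without a transgene. Of the alternatives' results for the 10 genes, 1461 kept their call, 13 moved past the call thresholds and 6 fell short of them. A reversed direction was counted only where a result was called, and there were 0. Results that stayed uncalled could change sign or cross the adjusted p threshold and still count as kept. Of 100 results, 1 for each gene and comparison, 14 crossed the adjusted p threshold in at least 1 alternative. Apart from changes of the fold threshold, the counts that moved were those of genes called higher with siNRF1 than with siNT, where PIDD1, CEP89, FBF1, TTBK2 (0.50 with upper-quartile scaling in the NRF1-FL line) and CEP164 (0.51 with it in the NRF1-ΔE7 line) crossed the fold threshold. In the NRF1-ΔE7 line the count of 2 became 1 with RLE scaling, DESeq2 or only the groups compared, 4 with upper-quartile scaling, 6 at a fold threshold of 0 and 0 at 1, and ran from 1 to 2 when a library was left out (1 without siNRF1 replicate 2 or 3 or siNT replicate 1 of that line). In the NRF1-FL line the count of 1 became 3 with upper-quartile scaling, 2 with at least 10 counts in every library, 6 at a fold threshold of 0 and 0 at 1, and ran from 1 to 2 when a library was left out (2 without replicate 2 or 3 of either siRNA, through CEP89). Without a transgene the count of 0 became 1 with upper-quartile scaling or at least 10 counts in every library and 6 at a fold threshold of 0, and was 1 without siNRF1 replicate 1 or siNT replicate 2, through PIDD1. At a fold threshold of 0 the counts of lower genes became 2 in the NRF1-ΔE7 line, 3 in the NRF1-FL line and 4 without a transgene. At that threshold 1 gene each was called higher between the isoforms under siNRF1 and in the interaction, and 1 gene each lower in the siRNA response of the NRF1-ΔE7 line and in the comparisons of each line with no transgene under siNT.

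Replicate numbers did not pair the libraries, since the deviations of same-numbered libraries correlated at -0.116 to 0.0641 over 45 pairs. With a replicate block no call of the 10 genes changed, and over all genes 25 in place of 12 were called higher in the siRNA response of the NRF1-ΔE7 line. By adjusted p alone, the block let PIDD1 pass between the isoforms under siNRF1 (adjusted p = 0.028), in the interaction (0.043) and in the siRNA response of the NRF1-ΔE7 line (0.020), while CEP83 in the NRF1-ΔE7 line no longer passed (0.053). Over all genes, counts without a filter were 126 higher in the interaction (57 with it), 98 lower in the siRNA response of the NRF1-FL line (27), 93 lower and 79 higher in that of the NRF1-ΔE7 line (16 and 12) and 127 lower with NRF1-FL under siNT (82). When a library was left out, the last ran from 46 to 74, and in the NRF1-ΔE7 line response from 6 to 31 genes were lower and from 6 to 26 higher. A fold threshold of 0 or 1 also moved the counts over all genes by more than 1.5 times, by construction. With 3 libraries a group, log2 changes near 0.15 of CEP83 and SCLT1 lay at the limit of what passed.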
